A study of Mus musculus with 10 samples.

Results

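Rab, Arf and Arl genes encode small GTPases that direct vesicle traffic between the membranes of a cell. The genes described here are those whose symbol is *Rab* or *Arl* plus a number, with or without a final letter, and *Arf1* to *Arf6*, which gave 85 of the 24453 genes in the count table. They are 59 Rab, 6 Arf and 20 Arl genes. The rule reads gene symbols only.

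As background, each of these proteins switches between a form bound to GDP and a form bound to GTP. Exchange factors (GEFs) load GTP, and the loaded protein sits on a membrane and recruits effectors such as tethers, motors and coats. Activating proteins (GAPs) then trigger hydrolysis. Rabs are held on membranes by prenyl groups on cysteines near the end of the protein, and Arfs by a myristoyl group on the glycine that follows the first methionine. In neurons they serve transport from the endoplasmic reticulum (ER) through the Golgi, synaptic vesicle release, endosome recycling, and movement of lysosomes along axons.

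The libraries came from intratelencephalic projection neurons (IT-PNs) of layer 5 of primary motor cortex (M1) in 5 male Fezf2-Gfp mice. The mice were hemizygous, of the transgenic line (Zfp312-EGFP)CO61GsatMmnc, and of Swiss Webster background. A retrograde tracer, cholera toxin subunit B (CTB) joined to Alexa 647, was injected into left M1 at postnatal day 23 to 25, and right M1 was collected at postnatal day 28 to 32. Sorting split the cells of each animal into those with GFP and CTB (Fezf2+ve) and those with CTB only (Fezf2-ve), so each type has 5 libraries. Type was set by a reporter transgene, so the groups are defined by GFP in the sort and not by the *Fezf2* gene itself. The paper reports that RT-PCR of the sorted fractions found endogenous *Fezf2* in those with GFP and CTB and not in those with CTB only. RNA received an ERCC spike-in and was amplified by PCR and in vitro transcription.

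Gene reads per library ranged from 107643 to 203379 in Fezf2+ve, with a median of 118134, and from 89138 to 217738 in Fezf2-ve, with a median of 168711. A count of 3 reads, used here as the floor for detection, equals 13.8 to 33.7 CPM (reads scaled to a common library size) at these depths. These floors use library size alone, while the summed CPM and the levels below also carry TMM scaling. Reads amplified by PCR are not independent molecules, so the floors and intervals below cover counting error only. ERCC reads made up 2.79% to 46.7% of all counted reads in a library.

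Reads fell on 65 of the 85 genes, and 20 had 0 reads in all 10 libraries. The genes at 0 include *Arf6*, which acts at the plasma membrane, *Rab5b* and *Rab21* of early endosomes, and *Rab1b* of the ER to Golgi step. At this depth their absence cannot be told from a low level. Among the 65 genes with reads the median was 10 reads over the 10 libraries, and 44 genes reached 3 reads in at least 1 library. Between 19 and 40 of the 85 had at least 1 read in a given library, and 7 to 21 had at least 3. A filter on low counts asked for 10 CPM or more in 2 or more libraries, after which 39 were tested and 26 with reads were not. Of the 39, 5 reached 10 CPM in libraries of 1 type alone, *Rab6b* in Fezf2+ve and *Rab4b*, *Rab20*, *Rab24* and *Rab27a* in Fezf2-ve, so the filter itself fixed on which side these are high.

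The families differ at the ends of their coding sequence. Among the 59 Rab genes, 59 have a cysteine codon (TGT or TGC) within the last 4 codons, and 44 have at least 2. At least 1 such codon stands there in 0 of 6 Arf genes and 1 of 20 Arl genes. A glycine codon (GGN) follows the first ATG in 6 of 6 Arf genes, 11 of 20 Arl genes and 5 of 59 Rab genes. In Rabs the late cysteines and in Arfs the second glycine are the known anchor residues, and the sequences below show their codons for genes whose counts are described next. The first 4 are the last 30 coding bases before the stop codon, with cysteine codons in capitals, and *Rab8a* is shown because its single cysteine codon stands 4 codons from the end.
Rab2a: ggcggacagcaggcagggggaggcTGCTGT
Rab8a: aggaccagcttcttccggTGCagtctcctg
Rab31: cagagcttgcaagccagccgtcggTGCTGC
Rab6b: cccccggccagcgagggcggcTGCtccTGT
They lie in coding exons at chr4:8606471-8606500 (plus strand), chr8:72180105-72180134 (plus), chr17:65654409-65654438 (minus) and chr9:103181214-103181243 (plus) of GRCm38 in GENCODE M21.

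The other end is shown for 3 genes, as the first 30 coding bases with a glycine codon in second place in capitals. *Arl15* is the most read of the 85 genes and has no such codon.
Arf1: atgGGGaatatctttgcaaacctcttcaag
Arf4: atgGGCctcaccatctcctctctcttctcg
Arl15: atgtctgatctccggataactgaggcgttt
They lie in coding exons at chr11:59213458-59213487 (minus), chr14:26638420-26638449 (plus) and chr13:113794649-113794678 (plus) of the same annotation.

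Most reads of the family came from a few genes in single libraries. The 85 genes together had 22712 reads, and *Arl15*, *Arf4*, *Rab2a* and *Rab8a* held 20824 of them (91.7%). *Arl15* had 36, 31, 49, 15618 and 55 reads in Fezf2+ve libraries 1 to 5 and 49, 30, 42, 26 and 32 in the Fezf2-ve libraries. Library 4 of Fezf2+ve stands apart, and the other 9 libraries overlap between types. That library held 97.8% of the gene's reads over the 10 libraries, which were 10.3% of all its own gene reads (95% Wilson interval 10.2% to 10.5%).

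*Arf4*, a Golgi Arf, had 10, 24, 8, 3 and 8 reads in Fezf2+ve and 10, 200, 12, 2119 and 12 in Fezf2-ve. Libraries 4 and 2 of Fezf2-ve are high and the other libraries overlap. *Rab2a*, which acts between the ER and the Golgi, had 4, 1, 1, 3 and 5 reads in Fezf2+ve and 6, 3, 2, 4 and 1870 in Fezf2-ve, where library 5 alone is high. *Rab8a*, which carries vesicles from the Golgi to the cell surface, had 536, 0, 4, 0 and 2 reads in Fezf2+ve and 3, 1, 1, 3 and 1 in Fezf2-ve, and here library 1 of Fezf2+ve is high. A different library stands out for each of these 4 genes.

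**Figure D1:**
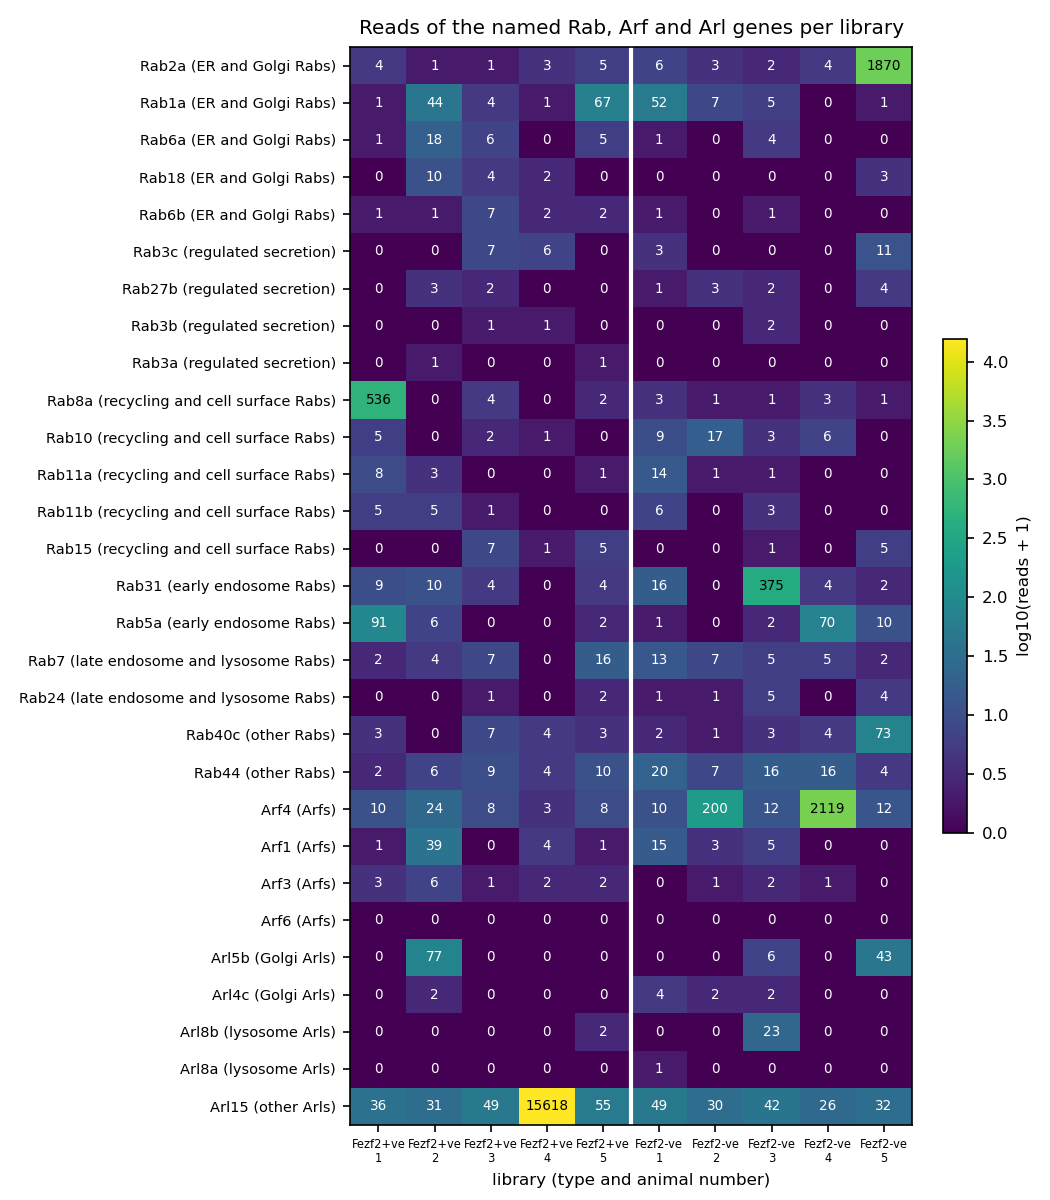
Reads of the 29 named genes (vertical axis, with role) in each of the 10 libraries (horizontal axis), 5 per type, with the white line between types. Colour is log10(reads + 1) and numbers are reads; single bright cells such as 15618 for *Arl15* stand in lines that are otherwise dark.

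Concentration in 1 library is a property of the whole table. Of 14 genes of the family with at least 50 reads, 8 had over 50% of them in 1 library (57.1%), against 1599 of 2359 such genes overall (67.8%). The median share of the top library was 59.2% for the family and 67.7% for all genes with at least 50 reads. The 8 genes are *Arl15*, *Arf4*, *Rab2a*, *Rab8a*, *Rab31*, *Arl5b*, *Rab40c* and *Arf1*, and their top libraries held 20707 of the 22712 reads (91.2%). The remaining 2005 reads are spread over all other genes and libraries. *Rab44*, an atypical long Rab, is at the other extreme, with 21.3% in its top library and 2 to 20 reads in each of the 10 libraries.

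**Figure D2:**
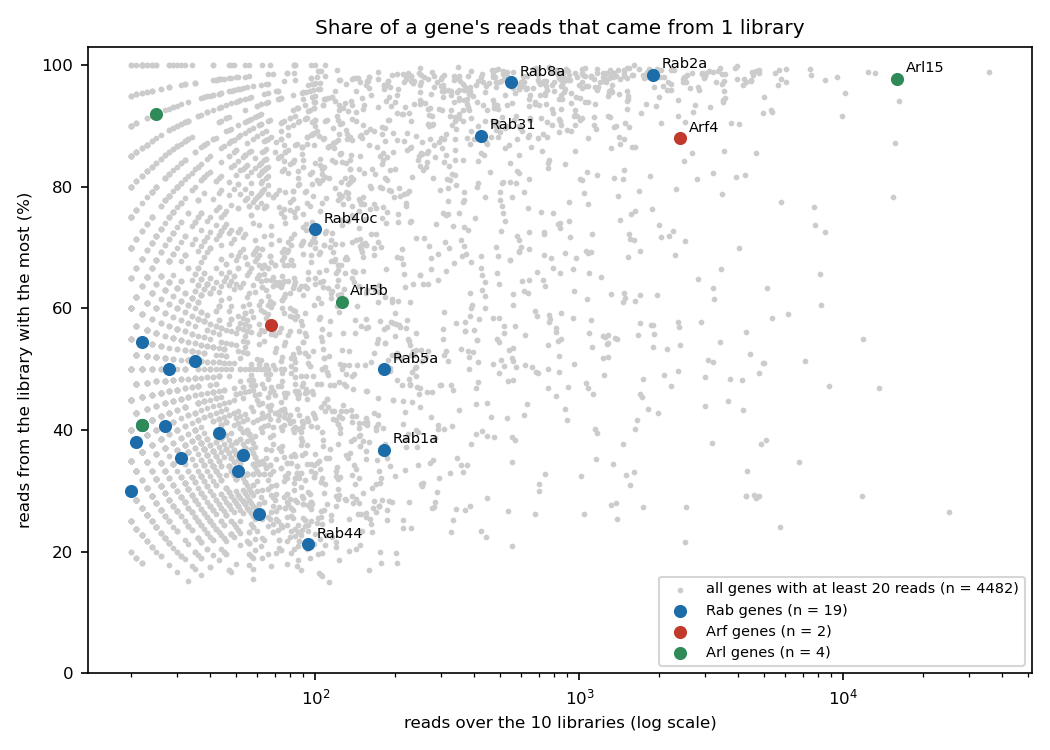
Share of a gene's reads that came from its top library (vertical axis, %) against its reads over the 10 libraries (horizontal axis, log scale), for genes with at least 20 reads. Coloured points are Rab, Arf and Arl genes, and *Rab2a*, *Rab8a* and *Arl15* lie near the upper edge among many grey points of other genes.

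The comparison of the types asks whether the GTPases differ between IT-PNs with and without the Fezf2 reporter in the same animal. None of the 39 tested genes passed with the animal as a block. By edgeR's two-sided quasi-likelihood test with Benjamini-Hochberg adjustment, 0 of 39 had an adjusted p at or below 0.1, where the share over all 7409 tested genes was 0%. At an unadjusted p under 0.05 the count was 0 of 39, against 3.89% of all genes. DESeq2 with the block called 0 of the family, against 1.32% of all genes. DESeq2 gave an adjusted p to 10 of the family and to 1664 genes in all, and the calls are 5.89% of the latter. Without the block edgeR called 4 of 39, against 3.77% of all genes.

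The 4 genes called without the block are the 4 with the most reads, each held by 1 library. For *Arl15* the log2 fold change (Fezf2+ve over Fezf2-ve) was 7.40 without the block and 1.16 with it (SE 1.60), and without animal 4 it was 0.38 and 0.35. For *Arf4* it was -5.58 without the block and -1.71 with it (SE 1.58), and -2.50 without the block and animal 4. *Rab2a* gave -6.51 and -1.46 (SE 1.43), and -0.36 without the block and animal 5. *Rab8a* gave 6.18 and 1.21 (SE 1.98), and -0.32 with the block once animal 1 was left out. When any 1 animal was left out of the fit without the block, the count of calls was 0 among the family and 0 among all genes, while 2 to 6 of the family had an unadjusted p under 0.05. The lowest adjusted p over all genes was 0.112 to 0.198 in these fits, and where its top library stayed in, the fold remained large, as for *Arl15* at 7.51 to 7.73.

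**Figure D3:**
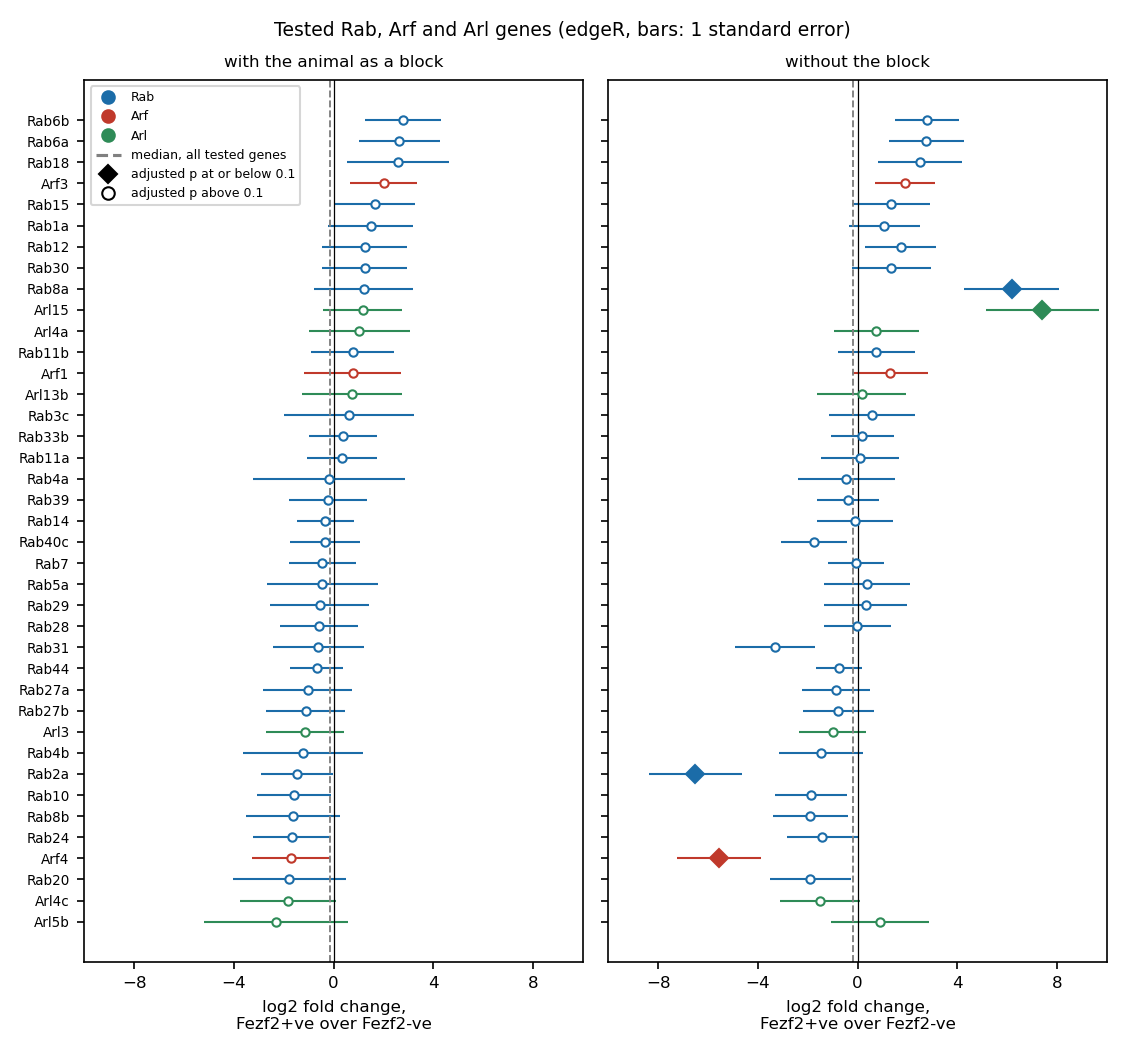
Fitted log2 fold change (horizontal axis, Fezf2+ve over Fezf2-ve) with 1 standard error for the 39 tested genes (vertical axis), from 5 libraries per type, with the animal as a block (left) and without it (right). The standard errors were worked back from the test statistic. Diamonds mark an adjusted p at or below 0.1, and the 4 in the right panel are *Arl15*, *Rab8a*, *Arf4* and *Rab2a*.

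With the block, 17 fitted values were above 0 and 22 below, with a range of -2.32 to 2.80 and a median of -0.34. Over all tested genes 45.7% were above 0 and the median was -0.16. For 30 of the 39 the value lay within 1 standard error of 0 (70.3% of all genes did), and for 0 of them beyond 2 standard errors (5.14% of all genes). These standard errors were worked back from the test statistic, so both counts restate the test and add no evidence to it. Without the block the family's median was 0.09. In bulk libraries fewer cells of a type and less RNA per cell cannot be told apart.

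The levels of 1 gene of the family did not overlap between types, a gene that passed the filter through Fezf2+ve alone. *Rab6b*, which serves retrograde transport to the Golgi in neurons, had 1, 1, 7, 2 and 2 reads in Fezf2+ve and 1, 0, 1, 0 and 0 in Fezf2-ve. As raw reads the types meet at 1 read, and scaling to library size parts them. It entered the test through Fezf2+ve libraries 3 and 4 alone and leaves it without animal 3 or 4. Its direction and its separation are therefore no finding. Its level, log2(CPM + 1) after TMM scaling, was 3.99 ± 1.11 (SD, n = 5) and 1.02 ± 1.39, and with log2(CPM + 5) it was 4.36 and 2.71. Its fitted log2 fold change was 2.80 (SE 1.53, adjusted p 0.998, edgeR), and no fold is read from it. By the same route *Rab6b* is 1 of 39 genes of the family that were higher in all 5 animals (1.7% of all genes). It is also 1 of 39 whose types did not overlap with Fezf2+ve above (0.499%). Neither count is a result about the family. In the other direction, 0 were lower in all 5 animals (2.42%) and 0 lay wholly below (0.945%).

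Among the ER and Golgi Rabs 7 of 12 were tested, 6 had fitted values above 0 and 0 passed. For *Rab6b* among the 6 the filter fixed that side. With the block *Rab33b* was 0.36, and as low as -0.48 with 1 animal left out. *Rab1a* was -0.20 without the block and animal 5. *Rab6a*, the broadly expressed relative of *Rab6b*, had 1, 18, 6, 0 and 5 reads in Fezf2+ve and 1, 0, 4, 0 and 0 in Fezf2-ve, a fitted difference of 2.63 (SE 1.63). *Rab18*, known from the ER and lipid droplets, had 0, 10, 4, 2 and 0 against 0, 0, 0, 0 and 3 reads. *Rab1a*, which acts from the ER to the Golgi, had 1, 44, 4, 1 and 67 against 52, 7, 5, 0 and 1. In these 3 genes the types overlap, and the highest library of each is a Fezf2+ve library. *Rab2a* is the 1 tested gene of the group with a value below 0.

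Genes of regulated secretion were read little, and 3 of 8 were tested. *Rab3a*, the main Rab of synaptic vesicles, had 2 reads in all, both in Fezf2+ve, and *Rab3b* had 4 reads, 2 in each type. *Rab3c* had 0, 0, 7, 6 and 0 reads against 3, 0, 0, 0 and 11. *Rab27b*, which docks secretory vesicles, had 0, 3, 2, 0 and 0 against 1, 3, 2, 0 and 4. The types overlap in each of these 4 genes, and no fold is given for *Rab3a* and *Rab3b* because neither type passed 3 reads in a library.

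Of the recycling and cell surface Rabs 8 of 12 were tested, 5 with values above 0 and 0 past the threshold. Among the 5, with the block and 1 animal left out, *Rab8a* reached -0.32, *Rab11a* -0.17 and *Rab11b* -0.24. *Rab11a* and *Rab11b* mark recycling endosomes. *Rab11a* had 8, 3, 0, 0 and 1 reads in Fezf2+ve and 14, 1, 1, 0 and 0 in Fezf2-ve, and *Rab11b* had 5, 5, 1, 0 and 0 against 6, 0, 3, 0 and 0. *Rab15*, of recycling endosomes, had 0, 0, 7, 1 and 5 against 0, 0, 1, 0 and 5. *Rab10*, which sends vesicles to the cell surface, had 5, 0, 2, 1 and 0 against 9, 17, 3, 6 and 0. All 4 overlap between types. Antisense *Rab10os* had 6, 0, 2, 1 and 1 reads in Fezf2+ve and 3, 17, 2, 6 and 0 in Fezf2-ve, equal to *Rab10* in some libraries and 3 against 9 in library 1 of Fezf2-ve, and strand use in the counting is not stated, so the value of *Rab10* is uncertain.

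Endosome and lysosome genes had edgeR values below 0 in every tested case with the block and all animals. These were 5 early endosome Rabs and 3 of late endosomes and lysosomes, and 0 passed. For *Rab4b*, *Rab20* and *Rab24* among them the filter fixed that side. *Rab29* was 0.32 without the block, and *Rab7* was 0.14 with it but without animal 4. In DESeq2 with the block *Rab4a* was 0.29. Over all tested genes 45.7% were above 0 in edgeR with the block. *Rab5a*, which drives fusion of early endosomes, had 91, 6, 0, 0 and 2 reads in Fezf2+ve and 1, 0, 2, 70 and 10 in Fezf2-ve. Its fitted value was -0.46 (SE 2.22) with the block and 0.38 without it, and 1 library of each type holds most of its reads. Left out in turn with the block, animals 3, 4 and 5 gave 0.50, 1.41 and 0.79. Animals 1 and 2 gave -2.33 and -2.21. *Rab31*, which works between the trans-Golgi and endosomes, had 9, 10, 4, 0 and 4 against 16, 0, 375, 4 and 2, a fitted value of -0.63 that was 0.49 without animal 3. *Rab7*, of late endosomes, had 2, 4, 7, 0 and 16 against 13, 7, 5, 5 and 2, and *Rab24*, linked to autophagy, had 0, 0, 1, 0 and 2 against 1, 1, 5, 0 and 4. The lysosome Arls, which couple lysosomes to kinesin, were not tested: *Arl8a* had 1 read and *Arl8b* had 25, of which 23 in library 3 of Fezf2-ve.

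Among the other Rabs 4 of 8 were tested and all 4 fitted values were below 0, but with 1 animal left out *Rab28* and *Rab39* reached 0.28, and *Rab40c*, described below, also came out above 0. *Rab44* had 2, 6, 9, 4 and 10 reads in Fezf2+ve and 20, 7, 16, 16 and 4 in Fezf2-ve, levels of 5.36 ± 0.77 and 6.04 ± 0.94 (SD, n = 5) that differ by less than their spread. *Rab40c*, a Rab with a SOCS box that joins ubiquitin ligases, had 3, 0, 7, 4 and 3 against 2, 1, 3, 4 and 73, with 73.0% of its reads in library 5 of Fezf2-ve. Its fitted value was -0.35, and 0.51 without animal 5.

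Of the 6 Arfs 3 were tested. *Arf1*, which recruits the COPI coat, had 1, 39, 0, 4 and 1 reads in Fezf2+ve and 15, 3, 5, 0 and 0 in Fezf2-ve, a fitted value of 0.75 (SE 1.93) that was -0.44 without animal 2. *Arf3*, of the trans-Golgi, had 3, 6, 1, 2 and 2 against 0, 1, 2, 1 and 0, a fitted value of 2.00 (SE 1.35, adjusted p 0.998, edgeR). Among Arls of the Golgi, *Arl5b* had reads in 3 libraries, 77 in library 2 of Fezf2+ve and 6 and 43 in libraries 3 and 5 of Fezf2-ve. Its fitted value was -2.32 (SE 2.89) with the block, 0.90 without it and 1.20 with the block but without animal 5. *Arl4c*, grouped here with the Golgi Arls although it recruits cytohesins to the plasma membrane, had 2 reads in Fezf2+ve and 8 in Fezf2-ve. The types of each of these genes overlap. In all, 3 of 7 Golgi Arls, 2 of 5 Arls of cilia and tubulin (*Arl3* at -1.15 and *Arl13b* at 0.75, picked out here after their values were seen) and, of the 6 other Arls, *Arl15* alone were tested. With the block and 1 animal left out, *Arl3* ran from -2.30 to -0.68 and *Arl13b* from -0.48 to 0.83.

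Summed levels turn on the same few genes. The summed Arl level was higher in Fezf2+ve in 4 of 5 animals, with a mean log2 ratio of 2.16 ± 4.17 (SD, n = 5 animals), and without *Arl15* and *Arl5b* it was higher in 1 of 5, at -0.66 ± 0.76. For the Arfs the ratio was -1.97 ± 2.96, higher in Fezf2+ve in 0 of 5 animals, and without *Arf1* and *Arf4* it was 1.40 ± 1.90, higher in 4 of 5. For the Rabs it was -0.74 ± 2.32, and 0.19 ± 1.24 without *Rab2a*, *Rab8a*, *Rab31* and *Rab40c*. The sign of the ratio is opposite in all 3 families once the genes held by 1 library are left out, and each of the 6 ratios is smaller than its SD. The reduced Arf sum rests on *Arf3* with 18 reads over the 10 libraries and *Arf2* with 7, as *Arf5* and *Arf6* had 0. In the reduced Arl sum, 23 reads are those of *Arl8b* in library 3 of Fezf2-ve. The signs of these 2 reduced sums are thus read from few reads. In the reduced sums the Rab ratio is -0.12 without animal 5 and 0.71 without animal 4, and the Arf ratio is 0.59 without animal 1, whose reduced Arf sum is 0 in Fezf2-ve so that the pseudocount sets its ratio. With all genes kept, leaving out each animal in turn kept the sign and gave 0.32 (without animal 4) to 2.79 for the Arls, -2.44 to -0.70 (without animal 4) for the Arfs and -1.56 to -0.058 (without animal 5) for the Rabs.

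**Figure D4:**
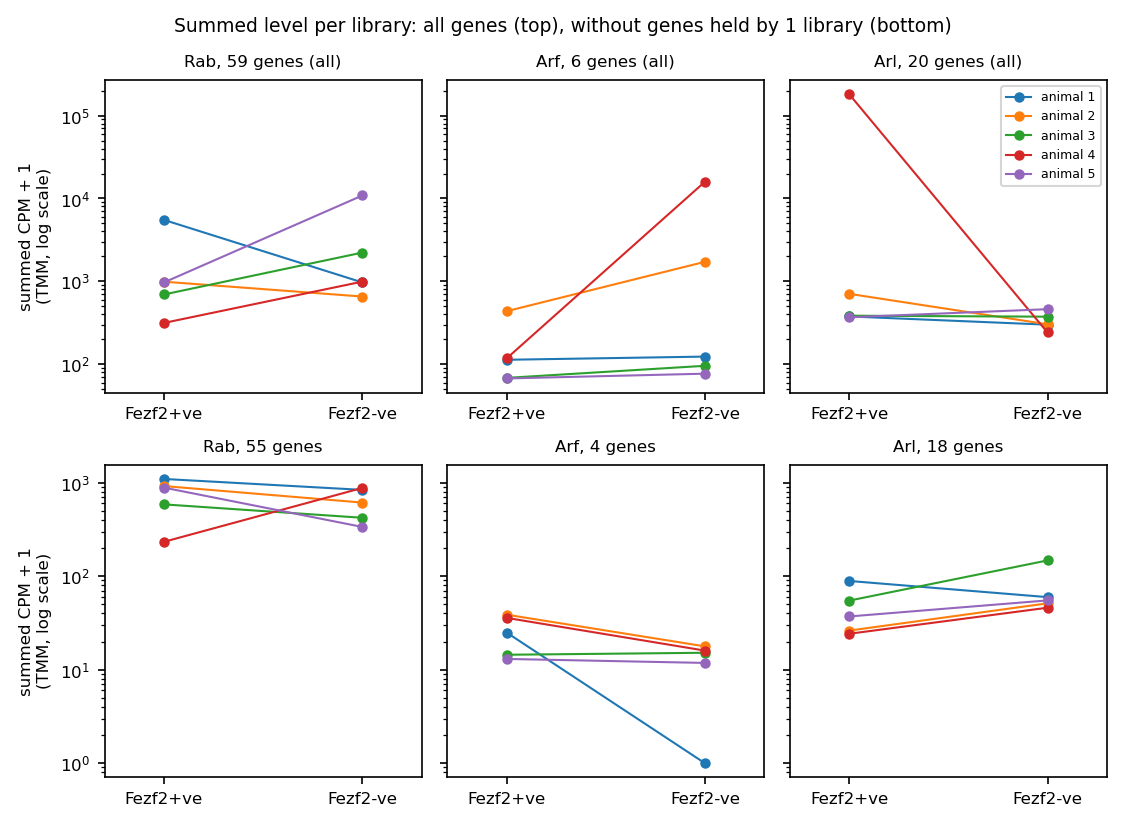
Summed CPM + 1 of the Rab, Arf and Arl genes (vertical axis, log scale) in each type (horizontal axis), with 1 line per animal (n = 5), for all genes (top) and without the 8 genes held by 1 library (bottom). Single high points, such as animal 4 in the Arl panel, are gone from the lower panels.

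Other genes of the same pathway, 192 GEFs, GAPs, effectors, prenylation factors and related GTPases, were listed apart from the family. Of these, 117 were tested, 55 with values above 0 and 62 below, and edgeR with the block called 0, with 3 at an unadjusted p under 0.05 (2.56%, against 3.89% of all genes). DESeq2 called 1 (0.855% against 1.32%) and edgeR without the block 2 (1.71% against 3.77%). *Tbc1d22b*, of the Rab GAP family, had 248, 195, 352, 108 and 243 reads in Fezf2+ve and 59, 32, 121, 21 and 8 in Fezf2-ve. Its levels were 10.65 ± 0.42 and 7.64 ± 1.38 (SD, n = 5), higher in 5 of 5 animals (exact paired permutation p = 0.0625, the smallest that 5 animals allow). The types do not overlap as levels, while as raw reads 108 and 121 cross. Of the 117 it is the 1 gene higher in all 5 animals (1.7% of all genes) and the 1 wholly above (0.499%). In the other direction 2 were lower in all 5 animals (2.42%) and 1 lay wholly below (0.945%). *Tbc1d22b* was named for the smallest p among those above 0, so its permutation p and its separation are no further support. Its log2 fold change was 2.94 (SE 1.13, adjusted p 0.998) in edgeR and 2.90 (adjusted p 0.0569) in DESeq2, both with the block.

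*Rufy3* and *Erc2*, both effectors, had the next smallest p above 0. *Rufy3* had 6, 8, 386, 1 and 20 reads in Fezf2+ve against 1, 0, 2, 9 and 9, and *Erc2* of the presynaptic active zone had 3, 16, 7, 25 and 16 against 2, 0, 10, 2 and 9. Below 0, *Adap2*, an Arf GAP, had 0, 1, 0, 0 and 1 reads in Fezf2+ve and 2, 2, 31, 41 and 3 in Fezf2-ve. *Cyth3*, an Arf GEF, had 0 reads in Fezf2+ve and 0, 11, 3, 1 and 3 in Fezf2-ve, with 61.1% of them in library 2. Both passed the filter through Fezf2-ve libraries alone, as 19 of the 117 did, so no fold or direction is read from them. *Dennd4a*, a Rab GEF, had 2, 0, 5, 1 and 4 against 24, 2, 594, 18 and 1, with 91.2% in library 3 of Fezf2-ve. The 2 calls without the block, *Lrrk2* and *Tbc1d22a*, had 97.7% and 97.3% of their reads in 1 Fezf2-ve library.

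Marker genes were read to check the labelled cells. Of 12 markers of cortical projection neurons 11 had reads, *Camk2a* the most with 588, and *Tbr1* was at 0. The summed CPM of the 12 was 104 to 1396 in Fezf2+ve and 127 to 2697 in Fezf2-ve. Single genes set both upper ends, with *Chn1* at 213 of 232 reads in library 5 of Fezf2+ve and *Camk2a* at 529 of 571 in library 3 of Fezf2-ve, and the other Fezf2-ve libraries lie at 127 to 645. All 15 microglia markers had reads, *Ctss* the most with 817. Their summed CPM was 264, 120, 80.7, 128 and 156 in Fezf2+ve libraries 1 to 5 and 5692, 4090, 5834, 2971 and 4787 in Fezf2-ve, lower in Fezf2+ve in 5 of 5 animals. With the block 12 of the 15 had an unadjusted p under 0.05 in edgeR, against 3.89% of all genes. An adjusted p at or below 0.1 was reached by 0, against 0% of all genes. DESeq2 called 10, against 1.32%, and edgeR without the block 11, against 3.77%. The 15 had 101 reads in Fezf2+ve and 4167 in Fezf2-ve, so some may have passed the filter through Fezf2-ve alone, which was not counted. The list was chosen with earlier results of these data known, so these counts are a description only. By the summed levels, every comparison of types above is between libraries with low and with high microglia marker levels. The part of these markers in any GTPase value was not tested.

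Markers of other cell types drew reads too, and their source was not tested. Astrocyte markers had reads in 7 of 8 genes (*Slc1a2* 1817, *Gfap* at 0), with summed CPM of 511 to 5157 in Fezf2+ve and 54.1 to 6024 in Fezf2-ve. Oligodendrocyte precursor markers had reads in 4 of 4 (*Pdgfra* 740), at 128 to 1782 and 165 to 1314. Endothelial and mural markers had reads in 6 of 6 (*Flt1* 26), at 7.99 to 60.2 and 14.2 to 75.0. Interneuron markers had reads in 3 of 6 (*Gad2* 6), with *Slc32a1*, *Pvalb* and *Vip* at 0. These lists overlap between types.

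**Figure D5:**
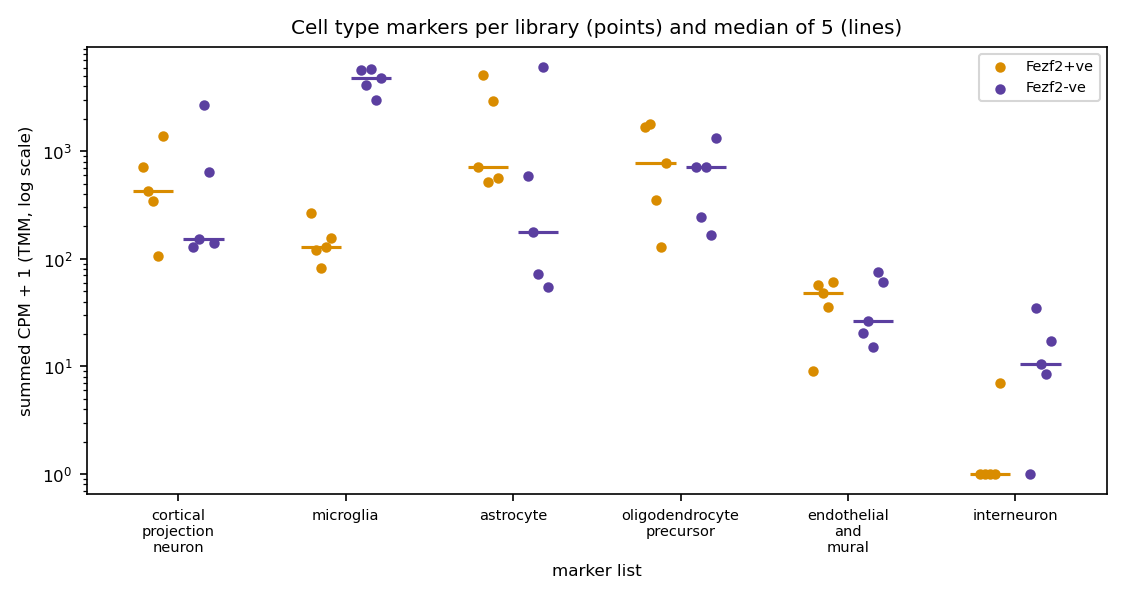
Summed CPM + 1 of each marker list (vertical axis, log scale) in each library (points, 5 per type) with the median of each type (line), by list (horizontal axis). Of the lists shown, microglia is the 1 whose types do not overlap, with Fezf2+ve at 80.7 to 264 CPM and Fezf2-ve at 2971 to 5834.

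How many reads a gene drew went with its length. Across the 85 genes Spearman's rho between reads and gene span was 0.56, and 0.59 across the 23464 genes with a known span; genes are not independent replicates. The median span was 25.2 kb for genes with reads and 8.54 kb for those at 0. *Arl15* spans 363 kb, *Rab3c* 227 kb and *Rab3a* 4.00 kb, so reads are not compared between genes as levels. Libraries of the same animal were about as alike as those of different animals. Across genes, deviations from the type means had an r of -0.03 to 0.10 within an animal, with a mean of 0.03. Pairs of different animals ran from -0.12 to 0.12. Deviations from a mean sum to 0, so the mean between animals (-0.01) follows from the mean within and is not compared with it.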

How the data were processed

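The deposited tables hold raw read counts per gene and per ERCC transcript. The authors trimmed reads, mapped them to mm10 with TopHat2 2.1.1 and counted them with bedtools 2.26.0 multicov on RefFlat genes, which can count a read on several overlapping genes. Strand use is not stated, and no molecular identifiers are named. The authors' DESeq2 table, with fold changes and p-values, was not used.

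Of 24453 genes, the 7409 that reached 10 CPM in 2 or more libraries were kept. They were TMM-normalised and tested two-sided with edgeR 4.0.16 in R 4.3.3 (quasi-likelihood, animal as a block, Benjamini-Hochberg over all genes, adjusted p at or below 0.1). The newer quasi-likelihood method was chosen over edgeR's legacy method after both results had been seen, to match an earlier fit of these data. The SE printed with an edgeR fold change was worked back from the test. It is the size of the log2 fold change divided by the square root of the F statistic. DESeq2 1.42.0 with the block was an alternative. Single levels used log2(CPM + 1) and an exact paired permutation test in Python 3.11.15 with scipy 1.17.1, numpy 2.4.6 and pandas 2.3.3. The methods were tested on simulated data, with no outcome reported here. Positions are from GENCODE M21.

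The members, pathway and marker lists were chosen with earlier results of these data known. Results of some marker genes are not reported here. Named genes are, in each direction, the 5 tested with the smallest p, the 10 tested with the most reads, 15 known members drawn from the routes, and any called by any fit; of the pathway genes, 3 in each direction. *Lrrk2*, *Tbc1d22a* and *Rab10os*, the genes at 0 reads named singly and the alternatives marked as added were chosen after values were seen. Alternatives were no block, other size factors, other filters, DESeq2, each animal left out, and another pseudocount.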

Additional observations from a re-analysis of the deposited data

Results flagged for a closer look

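In 12 of 62 groups of 5 libraries, 1 library lay so far from the rest that its gap to the nearest library, as a share of the group's range, passed 0.71 (Dixon's 95% critical value). Chance flags about 1 in 20 groups, and many groups here hold several libraries at 0.

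The level of *Arl15* in Fezf2+ve was highest in library 4 (share 0.923; level 17.47, others 7.62 to 8.38). The summed Arl level in Fezf2+ve was highest in library 4 (0.895). *Rab2a* in Fezf2-ve was highest in library 5 (0.842; level 13.30, others 3.38 to 4.95). *Rab31* in Fezf2+ve was lowest in library 4 (0.751; at 0, others 4.65 to 6.19). *Rab40c* in Fezf2+ve was lowest in library 2 (0.761; at 0, others 4.25 to 5.59).

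In 7 further groups the other 4 libraries were at 0, which gives a share of 1.0. These are *Arl4c* and *Arl5b* in library 2 of Fezf2+ve, *Arl8b* in library 5 of Fezf2+ve and in library 3 of Fezf2-ve, *Arl8a* in library 1 of Fezf2-ve, *Rab18* in library 5 of Fezf2-ve and *Rab3b* in library 3 of Fezf2-ve.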

How the results depend on the processing

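With the animal as a block, the count of called genes of the family stayed at 0 under DESeq2's size factors, scaling by library size alone, no filter, the stricter filter, DESeq2, the legacy quasi-likelihood method, and with each animal left out. The legacy fits, the fits without both block and 1 animal and the sums without genes held by 1 library, also with an animal left out, were added after seeing the data. Without the block 4 of the family and 279 of all genes were called, and with the legacy method 2 and 638; DESeq2 with the block called 98 of all genes. At an unadjusted p under 0.05 the family's count was 6 without the block and 5 with the legacy method without it; leaving out each animal, with or without the block, gave 0 to 6. The median log2 fold change of the tested genes was 0.09 without the block and 0.0779 with the legacy method without it, -0.44 to 0.45 with an animal left out, and -0.62 with the stricter filter.

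Of 416 comparisons of 24 fitted fold changes with their alternatives, 372 kept their direction and 44 reversed, 39 of these on leaving out an animal, in 11 genes. Without the block *Arl5b* was 0.90 in both methods and *Rab5a* was 0.38; in DESeq2 *Rab3c* was -0.12 (0.62 in edgeR with the block). Leaving out each animal, with or without the block, gave ranges of -0.83 to 2.39 for *Arf1*, -6.31 to 3.73 for *Arl5b*, -0.17 to 0.77 for *Rab11a*, -0.24 to 1.45 for *Rab11b*, -0.20 to 2.91 for *Rab1a*, -4.10 to 0.49 for *Rab31*, -1.45 to 2.56 for *Rab3c*, -2.28 to 0.77 for *Rab40c*, -3.50 to 3.40 for *Rab5a*, -1.39 to 0.34 for *Rab7* and -0.32 to 6.89 for *Rab8a*. The summed Arf ratio was 1.40 without *Arf1* and *Arf4*, and leaving out each animal, with or without these 2 genes, gave -2.44 to 1.77. With a pseudocount of 5, 9 of 56 levels moved by more than 1 SD, *Rab6b* in Fezf2-ve among them. In each case the cause was not tested. Depth limits what can be seen: 60 of the 85 genes had under 20 reads over the 10 libraries.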
